A study of Rattus norvegicus with 6 samples.

Results

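Lysyl oxidases and elastic fibre genes were followed in rat kidney epithelial cells before and after transformation by the transcription factor GLI1. The genes are Lox, Loxl1, Loxl2, Eln, Fbn1, Mfap5, Ltbp2, Fbln1, Fbln2 and Fbln5, and every probe set annotated to exactly 1 of these symbols was taken, which gave 10 of 14217 named genes and 15 of the 31099 probe sets on the arrays, 2 for each of 5 genes and 1 for each of the other 5. GLI1 is a zinc finger transcription factor of the Hedgehog pathway. The 4 GLI1 arrays come from RK3E cells transfected with a GLI1 expression construct: each focus of overgrowing cells was picked and kept as a line, so that a line stems from 1 focus. One GLI1 array has no clone named, 1 is clone I and 2 are clone II, and these arrays are given in that order below. The 2 parental arrays come from RK3E cells without the construct. RK3E cells are rat kidney cells immortalised with an adenovirus oncogene, a feature that both groups share, and the labels state growth in the same medium with serum. The labels describe no vector-transfected or focus-picked control, so construct, transfection and picking cannot be told apart. The level of the introduced GLI1 was not analysed here.

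Lysyl oxidases are secreted, copper-dependent amine oxidases. They oxidise lysine side chains of elastin and fibrillar collagens, and the aldehydes formed then join neighbouring chains by covalent crosslinks. An elastic fibre has a core of crosslinked elastin laid down on a scaffold of fibrillin microfibrils, and fibulins and latent TGF-beta binding proteins link the parts and help place the enzymes. In the kidney, elastic fibres are found in artery walls, and fibrillin microfibrils also occur in the glomerular mesangium.

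The values are MAS5 signals, 1 per probe set and array on a linear scale, and the array medians ran from 568 to 696. A signal is not compared between probe sets, since each has its own probes. Correlations of log2 signals over the 31042 probe sets that are no controls were 0.91 to 0.93 among the GLI1 arrays, 0.93 between the parental arrays and 0.88 to 0.90 between the groups. The ratio of the 3' to the 5' GAPDH control, a sign of RNA integrity, was 2.09, 1.45, 7.52 and 1.39 on the GLI1 arrays, against 3.66 and 1.43 on the parental arrays, so 1 array of each group stood apart. Calls on the 10 genes between all GLI1 and parental arrays, and counts of the pathway genes, that change without those 2 arrays are given below.

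Lox, Loxl1, Loxl2, Fbln5 and 1 of the Fbn1 probe sets fell in GLI1-transformed cells, and none of the genes rose. Averaged over the arrays, the log2 signal of 10 of the 15 probe sets (7 genes) exceeded the filter of 8.33, and these were tested with limma, and 5 did not, which leaves Mfap5, Ltbp2 and Fbln2 with no tested probe set. Among the 10, 7 fell and 0 rose at a Benjamini-Hochberg adjusted p under 0.05 over all 18625 tested probe sets, where 7.25% fell and 5.84% rose. No tested probe set of these genes was higher at an unadjusted p under 0.05 either. The median log2 difference (GLI1 minus parental) was -2.46 over the 10, beside 0.00 over all tested probe sets. All 4 GLI1 signals lay below both parental signals for 8 of the 10, against 20.2% of all tested probe sets. The filter acts on the mean of all arrays, and both Lox probe sets, Loxl1 and Fbln5 passed it with a GLI1 mean below it, so these 4 had to be higher in parental cells to be tested. The plot of signals by array shows every probe set, tested or not.

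**Figure D1:**
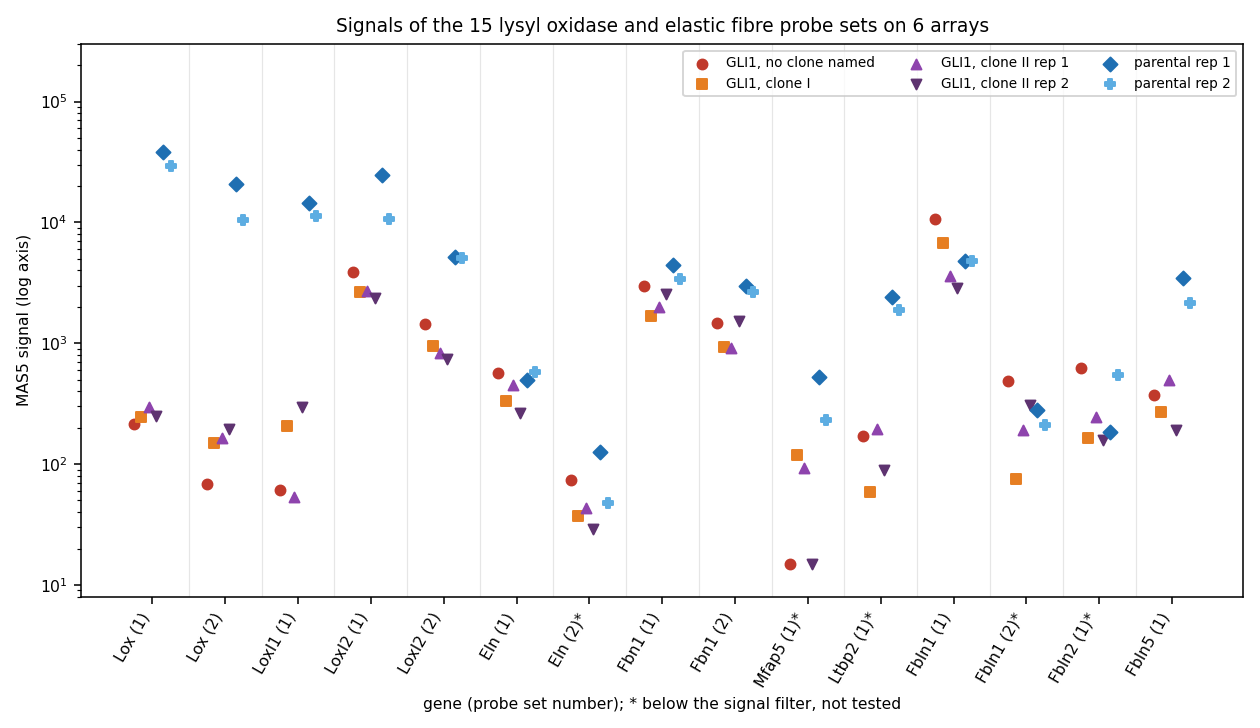
MAS5 signal (log axis) of each of the 15 probe sets on each of the 6 arrays, with the 4 GLI1 arrays left of the 2 parental arrays and untested probe sets starred. The Lox, Loxl1 and Ltbp2 points of GLI1 cells sit far below the parental points, while the Eln, Fbln1 and Fbln2 points of the groups overlap.

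Lox encodes lysyl oxidase, the founding enzyme of the family, which crosslinks elastin and collagens. In mouse fibroblasts the gene was also found as one that is low after RAS transformation and high again in revertants. Its first probe set (1368171_at) read 213, 244, 296 and 252 on the GLI1 arrays, against 38096 and 29503 on the parental arrays. The second (1368172_a_at) read 69.1, 150.3, 165 and 196 on the GLI1 arrays, against 20647 and 10519.5 on the parental arrays. The groups did not overlap at either probe set, and the lowest parental signal was 99.6 times and 53.7 times the highest GLI1 signal. Mean log2 signal of the first probe set was 7.96 ± 0.19 (SD, n = 4) in GLI1 cells and 15.03 ± 0.26 (SD, n = 2) in parental cells. The log2 difference was -7.07 (SE 0.26, 134-fold lower, limma adjusted p = 3.30e-06), and that of the second probe set was -6.77 (SE 0.48, 109-fold lower, limma adjusted p = 9.45e-05). Signals this low lie where MAS5 background subtraction weighs most: with 32 added to every signal before the log, the falls were 119-fold and 87.0-fold. Both probe sets kept an adjusted p under 0.05 with any 1 array left out and without the 2 arrays of high GAPDH ratio. The arrays measure RNA of whole cultures, where fewer cells that make a transcript and less of it per cell cannot be told apart.

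Loxl1 encodes the family member that acts on elastin and is needed in mice to renew elastic fibres in adult tissue. Its 1 probe set read 60.5, 208, 53.2 and 297 on the GLI1 arrays, against 14603 and 11212 on the parental arrays. The 2 clone II arrays gave the lowest and the highest of the 4 GLI1 signals, and all 4 lay far below the parental ones. The log2 difference was -6.75 (SE 0.69, 108-fold lower, limma adjusted p = 0.000661), and 81.2-fold with 32 added to each signal. Loxl1 passed the filter through its parental signals: with either parental array left out its mean dropped below the filter and it was not tested.

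Loxl2 encodes an enzyme that crosslinks collagen IV of basement membranes and has scavenger receptor domains. Its first probe set (1391450_at) read 3923, 2659, 2704 and 2345.5 on the GLI1 arrays, against 24555 and 10708 on the parental arrays. The second (1380474_at) read 1447, 944.5, 824 and 742 on the GLI1 arrays, against 5132 and 5058 on the parental arrays. Unlike those of Lox and Loxl1, the GLI1 signals of Loxl2 stayed well above the filter, a signal of 322, on each array. The log2 differences were -2.51 (SE 0.34, 5.69-fold lower, limma adjusted p = 0.00213) and -2.41 (SE 0.30, 5.33-fold lower, limma adjusted p = 0.00145). The parental arrays differed from each other at the first probe set, and the fall there was 3.76-fold without parental replicate 1 and 8.61-fold without parental replicate 2, limma adjusted p = 0.0298 and 0.00387. Without the 2 arrays of high GAPDH ratio the adjusted p-values were 0.0587 and 0.0595, and both calls were lost. Loxl3, a further enzyme of the family, had a log2 difference of -0.87 (SE 0.32) that did not pass (limma adjusted p = 0.111), and Loxl4 was not analysed here.

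Eln encodes tropoelastin, the soluble precursor of the elastic core. Its tested probe set (1388111_at) read 570.5, 330.2, 450.3 and 267 on the GLI1 arrays, against 501 and 578 on the parental arrays. The highest GLI1 signal lay between the parental ones, so the groups overlapped. The log2 difference was -0.47 (SE 0.41, 95% interval -1.39 to 0.45, limma adjusted p = 0.493), which leaves room for a fall of more than 2-fold or a small rise. The other probe set (1395753_at) read 74.1, 37.2, 43.5 and 29.3 on the GLI1 arrays, against 125.8 and 47.5 on the parental arrays, and was not tested. A difference in Eln was not detectable on these arrays.

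Fbn1 encodes fibrillin-1, the main protein of microfibrils in adult tissue. Its first probe set (1368829_at) read 2976, 1669.6, 1987 and 2544 on the GLI1 arrays, against 4426 and 3427 on the parental arrays. The second (1387351_at) read 1484, 938, 915 and 1534 on the GLI1 arrays, against 2985 and 2650.3 on the parental arrays. Both probe sets had every GLI1 signal below both parental signals, by a small margin at the first. The log2 difference at the second was -1.25 (SE 0.30, 2.38-fold lower, limma adjusted p = 0.0256), and at the first it was -0.80 (SE 0.27), which did not pass (limma adjusted p = 0.0886). The call at the second probe set was lost without the clone I array (adjusted p = 0.0611), without parental replicate 1 (0.205), without parental replicate 2 (0.123) and without the 2 arrays of high GAPDH ratio (0.287). The first probe set passed when the array with no clone named was left out (adjusted p = 0.0386).

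Ltbp2 and Mfap5 encode microfibril-associated proteins, and both fell short of the filter. Ltbp2, latent TGF-beta binding protein 2, binds fibrillin-1 and fibulin-5 and, unlike its relatives, does not bind latent TGF-beta. It read 169, 58.9, 196 and 88.8 on the GLI1 arrays, against 2412.5 and 1884.5 on the parental arrays, with no overlap. Its mean log2 signal of 8.25 was just under the filter of 8.33. Tested without a filter, its log2 difference was -4.21 (SE 0.60, 18.6-fold lower, limma adjusted p = 0.00366), and it was 14.4-fold lower with 32 added to each signal (limma adjusted p = 0.00107). Mfap5, microfibril-associated glycoprotein 2, read 15, 118, 92.9 and 14.9 on the GLI1 arrays, against 523 and 234 on the parental arrays. The groups did not overlap, but the GLI1 signals spread widely, and without a filter its log2 difference of -3.14 (SE 1.07) did not pass (limma adjusted p = 0.121).

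The 3 fibulins differed from each other. Fbln5 encodes fibulin-5, which binds tropoelastin, LOXL1 and integrins and is needed for elastic fibre assembly in mice. It read 375, 270, 495 and 190 on the GLI1 arrays, against 3481 and 2141 on the parental arrays, with no overlap. The log2 difference was -3.13 (SE 0.43, 8.74-fold lower, limma adjusted p = 0.00260), and the call was lost without parental replicate 1 (adjusted p = 0.0556) and without the 2 arrays of high GAPDH ratio (0.0587). Fbln1 encodes fibulin-1, a calcium-binding glycoprotein of elastic fibres and basement membranes. Its tested probe set (1372518_at) read 10739, 6799, 3594 and 2869.9 on the GLI1 arrays, against 4799 and 4769 on the parental arrays. The array with no clone named and clone I lay above both parental arrays and the 2 clone II arrays below them. Over all 4 GLI1 arrays the log2 difference was 0.13 (SE 0.46, 95% interval -0.92 to 1.18, limma adjusted p = 0.887), and its sign turned when the array with no clone named was left out (-0.21). Its second probe set (1385452_at, not tested) read 491, 74.8, 191 and 310.3 on the GLI1 arrays, against 278 and 213 on the parental arrays, without that order. Fbln2, which encodes fibulin-2, read 623, 164.5, 247 and 157 on the GLI1 arrays, against 185 and 545 on the parental arrays, and the groups overlapped. Neither passed without a filter (limma adjusted p = 0.937 for the second Fbln1 probe set and 0.856 for Fbln2).

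The model with 3 groups set clone II, and the other GLI1 arrays, each against the same 2 parental arrays. In clone II 6 of the 10 tested probe sets fell and 0 rose, where 5.74% of all tested probe sets fell and 3.99% rose. In the other GLI1 arrays 6 fell and 0 rose, where 6.83% fell and 5.57% rose, and 1 was higher at an unadjusted p under 0.05, the Fbln1 probe set. The 6 were those of Lox, Loxl1, Loxl2 and Fbln5 each time, in comparisons that share their parental arrays. Of these, both Lox probe sets, Loxl1 and Fbln5 had to be higher in parental cells to pass the filter. Their direction was thus set before the test in both comparisons. The log2 difference of Lox was -6.94 in clone II (SE 0.29, limma adjusted p = 1.97e-05) and -7.20 in the other GLI1 arrays (SE 0.29, limma adjusted p = 1.55e-05). That of Loxl1 was -6.67 in clone II (SE 0.83) and -6.83 in the other GLI1 arrays (SE 0.83). Single arrays moved these folds: the clone II fall was 102-fold, 43.1-fold without clone II replicate 1 and 241-fold without replicate 2, and that of the other GLI1 arrays was 114-fold, 61.6-fold without the array with no clone named and 212-fold without clone I. Without the 2 arrays of high GAPDH ratio, where fewer arrays are left, the clone II calls of Loxl1 and of both Loxl2 probe sets were lost. In the other GLI1 arrays the call of the first Loxl2 probe set held under 14 of 15 alternative settings. Fbln5 differed from parental cells by -3.15 in clone II (SE 0.52) and by -3.10 in the other GLI1 arrays (SE 0.52). The Fbln5 fall in clone II was 8.90-fold, and 14.4-fold without clone II replicate 1 and 5.51-fold without replicate 2. Both Fbln5 calls were lost without parental replicate 1 (limma adjusted p = 0.101 in clone II and 0.0892 in the other GLI1 arrays) and without the 2 arrays of high GAPDH ratio (0.0862 and 0.0670).

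Clone II was also compared with the other GLI1 arrays directly. None of the 10 probe sets passed, 1 had an unadjusted p under 0.05, and 0.129% of all tested probe sets were called. The 1 was the tested Fbln1 probe set, with a log2 difference of -1.41 (SE 0.26, unadjusted p = 0.000587, limma adjusted p = 0.130). Its difference from parental cells was -0.58 in clone II (SE 0.26, limma adjusted p = 0.219) and 0.84 in the other GLI1 arrays (SE 0.26, limma adjusted p = 0.0758). For Lox the interval of the direct difference was -0.41 to 0.93 and for Fbln5 it was -1.25 to 1.14, on the log2 scale. Some epithelial marker genes moved with Fbln1 among these arrays. Krt8 read 539 and 599 on the clone II arrays, against 4283.5 and 6092 on the other GLI1 arrays. Epcam read 601 and 431 on the clone II arrays, against 2177 and 1912 on the other GLI1 arrays. Cldn3 read 77.1 and 93 on the clone II arrays, against 1567.3 and 554.9 on the other GLI1 arrays. Cdh1 read 20.8 and 127.4 on the clone II arrays, against 600.6 and 200.2 on the other GLI1 arrays. Krt19 read 119.5 and 7.8 on the clone II arrays, against 147.6 and 149.4 on the other GLI1 arrays. Cdh1 and Krt19 fell short of the filter. Only Krt18 and Cldn4 of the list overlapped. Krt18 read 70.9 and 88.6 on the clone II arrays, against 76.9 and 154.8 on the other GLI1 arrays. Cldn4 read 300.8 and 62.4 on the clone II arrays, against 293.3 and 129.2 on the other GLI1 arrays. The part of epithelial marker genes in the Fbln1 difference was not tested. The plot of differences sets the 3 comparisons with parental cells side by side.

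**Figure D2:**
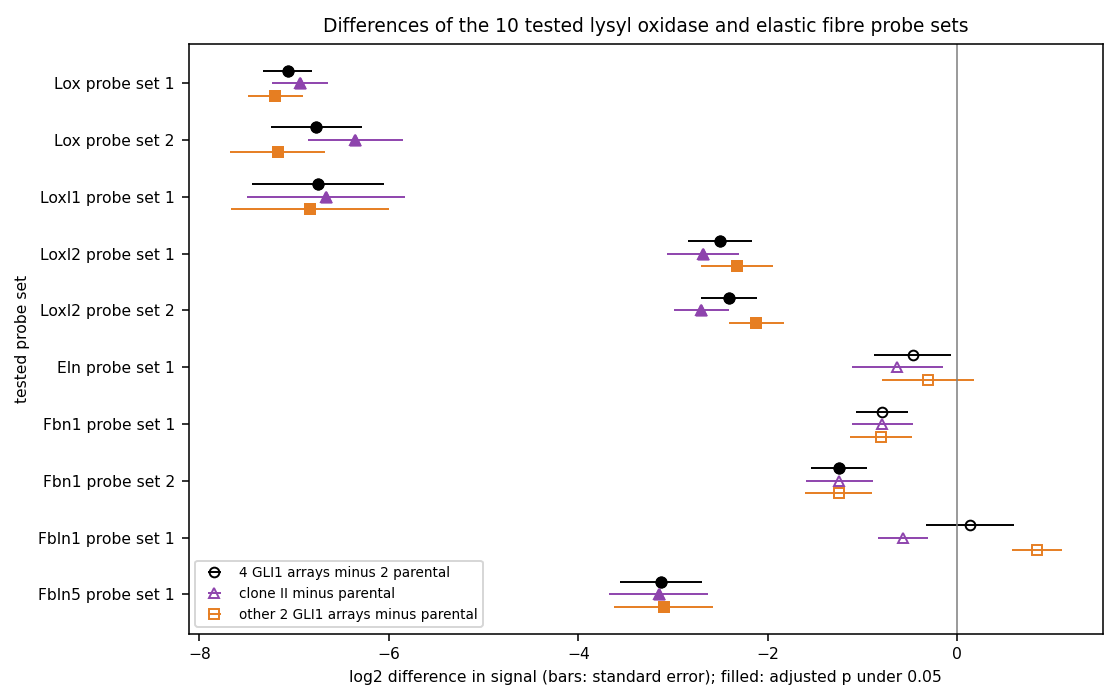
Log2 difference in signal with its standard error for the 10 tested probe sets, for all 4 GLI1 arrays, clone II and the other 2 GLI1 arrays, each minus parental cells, with filled points at an adjusted p under 0.05. Lox and Loxl1 lie between -6.36 and -7.20 in all 3 comparisons, and Fbln1 is the gene whose clone II and other points fall on opposite sides of 0.

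Promoters are shown for genes that fell, so that their sequence can be read beside their values. RefSeq promoters (rat build GRCr8) were matched by symbol for 6 of the 10 genes: Loxl1, Fbn1, Mfap5, Ltbp2, Fbln2 and Fbln5. The 250 bases before the annotated gene start follow, 5′ to 3′ on the gene's strand, for the 3 matched genes with the largest differences among those that passed with or without the filter. Capitals mark matches, on either strand, to the 6 motifs searched, whose letters are given with their counts. Loxl1 lies at chr8:67612225-67612474, Ltbp2 at chr6:110257299-110257548 and Fbln5 at chr6:126742707-126742956, all on the minus strand.
Loxl1: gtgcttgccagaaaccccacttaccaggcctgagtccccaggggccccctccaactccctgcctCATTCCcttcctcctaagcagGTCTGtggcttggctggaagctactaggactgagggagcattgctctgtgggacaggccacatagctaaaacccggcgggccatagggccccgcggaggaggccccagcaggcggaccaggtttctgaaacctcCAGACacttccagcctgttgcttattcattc
Ltbp2: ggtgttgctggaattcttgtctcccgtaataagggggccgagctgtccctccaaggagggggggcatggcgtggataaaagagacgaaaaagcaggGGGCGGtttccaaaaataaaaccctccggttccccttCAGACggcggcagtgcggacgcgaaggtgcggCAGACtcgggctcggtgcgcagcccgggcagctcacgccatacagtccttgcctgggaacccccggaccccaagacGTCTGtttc
Fbln5: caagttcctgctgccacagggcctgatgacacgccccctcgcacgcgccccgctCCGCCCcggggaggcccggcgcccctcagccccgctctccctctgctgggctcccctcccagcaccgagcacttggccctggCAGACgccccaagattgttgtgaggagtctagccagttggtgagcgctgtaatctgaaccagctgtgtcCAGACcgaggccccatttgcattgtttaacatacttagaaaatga
No match overlapped that of another motif. The GLI motif, GACCACCCA, was in 0 of the 6 promoters and in 0.338% of all 33469 promoters of this length. The AP-1 motif, TGANTCA, was in 0 of the 6 and in 6.34% of all promoters. The TATA box, TATAAA, was in 0 of the 6 and in 12.9% of all. The TEAD motif, GGAATG, was in 1, Loxl1 (bases -186 to -181 counted from the gene start, minus strand), and in 12.1% of all. The GC box, GGGCGG, was in 3 of the 6 (Ltbp2, Fbln2 and Fbln5) and in 30.5% of all. The SMAD motif, CAGAC, was in 4 (Loxl1, Fbn1, Ltbp2 and Fbln5) and in 42.9% of all. Letter matches describe the sequence of this window only. The GC content was 60.4% for Loxl1, 61.6% for Ltbp2 and 63.2% for Fbln5, beside a median of 51.2% over all promoters.

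Other genes of the pathway were counted with 1 probe set per gene, that of highest mean signal, of which 7.80% rose and 7.75% fell among 10240 tested genes, with a median log2 difference of 0.07. By this count 4 of the 7 tested lysyl oxidase and elastic fibre genes fell, Lox, Loxl1, Loxl2 and Fbln5, and Fbn1 did not, since its brighter probe set missed the threshold. Among them Lox, Loxl1 and Fbln5 had a GLI1 mean below the filter, so they had to be higher in parental cells to be tested. Calls of 2 of the 4, Lox and Loxl2, held with any 1 array left out. The plot of pathway lists places the genes beside those that follow.

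**Figure D3:**
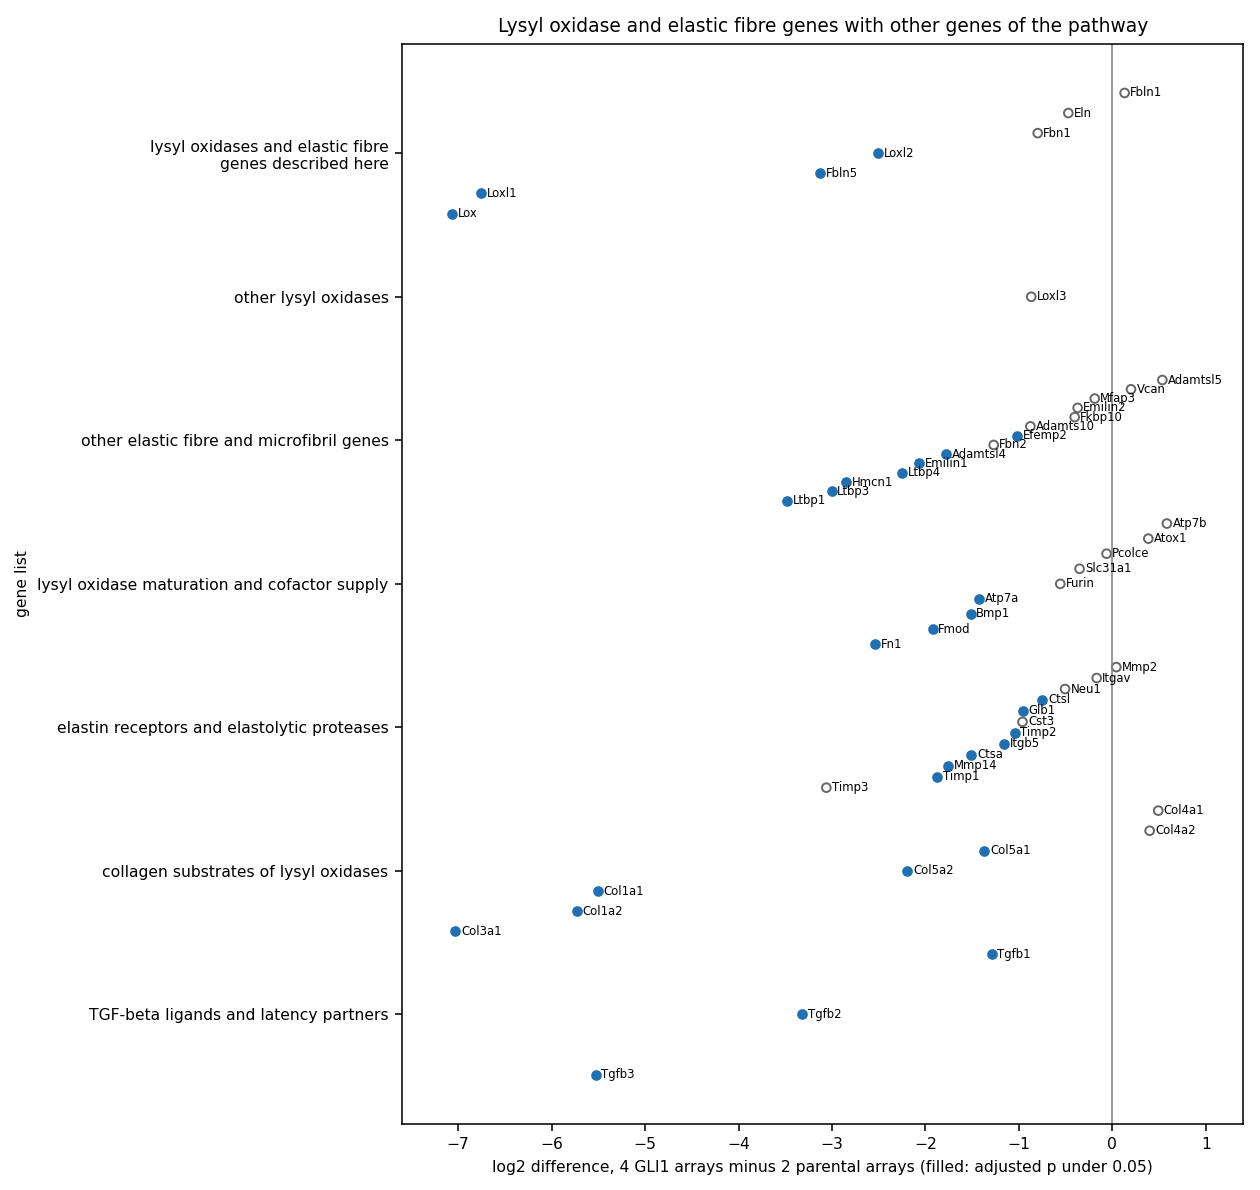
Log2 difference (4 GLI1 arrays minus 2 parental arrays) of each tested gene by list, with filled points at an adjusted p under 0.05. No gene of these lists has a filled point right of 0, and Lox, Loxl1, Col3a1, Col1a1, Col1a2 and Tgfb3 lie left of -5.

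Of 14 other tested elastic fibre and microfibril genes, 7 fell and 0 rose, with a median log2 difference of -1.14. Ltbp1, Ltbp3 and Ltbp4 encode the binding proteins that hold latent TGF-beta in the matrix. Ltbp1 read 577, 401, 208 and 382 on the GLI1 arrays, against 4328 and 3925 on the parental arrays (log2 difference -3.48, SE 0.40, limma adjusted p = 0.00106). Ltbp3 read 3123, 2236, 3061 and 2315.5 on the GLI1 arrays, against 23205 and 19503 on the parental arrays (log2 difference -3.00, SE 0.21, limma adjusted p = 9.68e-05). Ltbp4, which also assists elastic fibre assembly through fibulin-5, had a log2 difference of -2.25 (SE 0.36, limma adjusted p = 0.00510). The other 4 were Hmcn1 (hemicentin 1, -2.85), Emilin1 (a glycoprotein between elastin and microfibrils, -2.07), Adamtsl4 (a fibrillin-1 binding protein, -1.78) and Efemp2 (fibulin-4, which brings lysyl oxidase to tropoelastin, -1.02). Fbn2, the fibrillin of developing tissue, had a log2 difference of -1.27 that did not pass (limma adjusted p = 0.0613). The count was 2 without parental replicate 1 and 2 without the 2 arrays of high GAPDH ratio, and only Ltbp1 and Ltbp3 were called with any 1 array left out.

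All 3 TGF-beta ligand genes fell, as the plot of latent TGF-beta binding proteins and ligands shows. Tgfb3 read 415, 259, 293 and 187 on the GLI1 arrays, against 14226 and 11482 on the parental arrays (log2 difference -5.53, SE 0.34, limma adjusted p = 4.47e-05). Like Lox, it passed the filter with a GLI1 mean below it, so that it had to be higher in parental cells to be tested. Tgfb2 had a log2 difference of -3.32 (SE 0.30, limma adjusted p = 0.000335) and Tgfb1 one of -1.29 (SE 0.31, limma adjusted p = 0.0256). The Tgfb1 call was lost without clone II replicate 2 and without either parental array (adjusted p = 0.178 without replicate 1 and 0.139 without replicate 2), and without the 2 arrays of high GAPDH ratio (0.229), which left a count of 2.

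**Figure D4:**
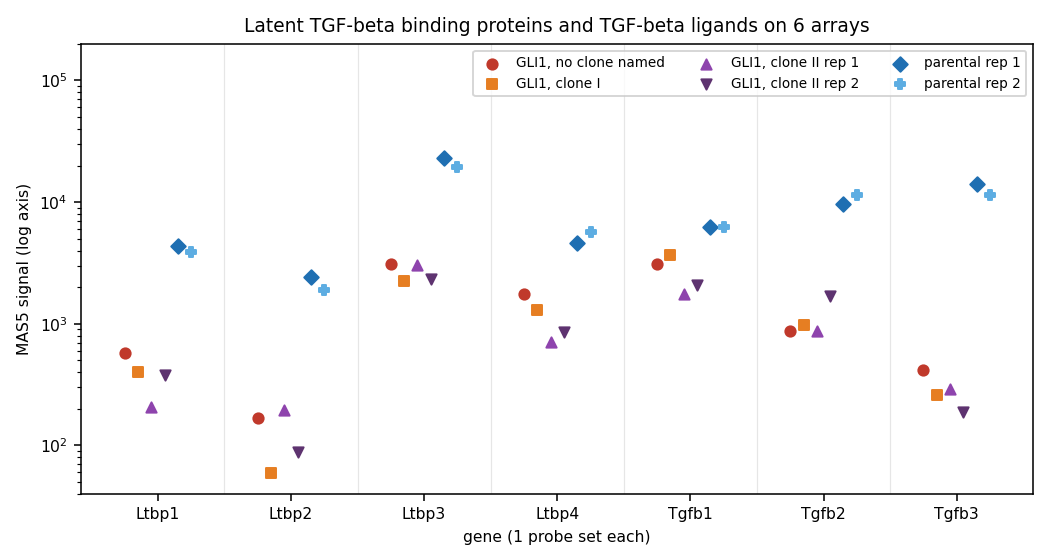
MAS5 signal (log axis) of the 4 latent TGF-beta binding protein genes and the 3 TGF-beta ligand genes on each of the 6 arrays, with GLI1 arrays left of parental arrays. In each of the 7 genes all GLI1 points lie below both parental points, and Tgfb1 has the narrowest gap.

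Of 9 tested genes that mature lysyl oxidase, place it or supply its copper, 4 fell and 0 rose. Fn1 encodes fibronectin, on which lysyl oxidase and its activating protease assemble, and its log2 difference was -2.54 (SE 0.23, limma adjusted p = 0.000306). Atp7a, the pump that loads copper into secreted enzymes, had a log2 difference of -1.43 (SE 0.18, limma adjusted p = 0.00180). Bmp1, the protease that removes the propeptide of lysyl oxidase, had one of -1.52 (limma adjusted p = 0.0130), although its other probe set did not pass (-0.79, limma adjusted p = 0.246). Fmod, fibromodulin, had one of -1.92 (limma adjusted p = 0.0438), and it too passed the filter only through its parental signals. The calls of Bmp1 and Fmod were lost when either parental array was left out, and that of Fmod also without the array with no clone named, clone I or clone II replicate 2. The count was 2 without either one and 1, Fn1, without the 2 arrays of high GAPDH ratio. Pcolce, an enhancer of procollagen cleavage, read 30484, 24244, 31624 and 27509 on the GLI1 arrays, against 31557 and 27694 on the parental arrays, and the groups overlapped. Postn encodes periostin, which holds the activating protease in the matrix. It read 20.7, 7.3, 7.9 and 5.7 on the GLI1 arrays, against 35847 and 24406 on the parental arrays, with no overlap, and fell short of the filter. Its GLI1 signals are too low to fix a fold: the log2 difference was -11.67 without a filter (SE 0.73, limma adjusted p = 4.68e-05), -9.46 with 32 added to each signal (SE 0.36) and -8.85 with signals below 64 set to 64 (SE 0.33).

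Of 7 collagen genes whose products lysyl oxidases crosslink, 5 fell and 0 rose. Col3a1 had a log2 difference of -7.03 (SE 0.46, limma adjusted p = 6.99e-05), Col1a2 one of -5.73 and Col1a1 one of -5.51, while Col5a2 and Col5a1 differed by -2.19 and -1.37. The count was 4 without the 2 arrays of high GAPDH ratio, where Col5a1 did not pass (limma adjusted p = 0.108). Col4a1 and Col4a2, basement membrane collagens, had differences of 0.49 and 0.40 that did not pass (limma adjusted p = 0.278 and 0.518). Of 12 genes for elastin receptors, elastin-cleaving proteases and their inhibitors, 7 fell and 0 rose. They included Ctsa and Glb1 of the elastin receptor complex (-1.51 and -0.96), the integrin subunit gene Itgb5 (-1.16), the proteases Mmp14 and Ctsl (-1.75 and -0.75) and the inhibitors Timp1 and Timp2 (-1.87 and -1.05). Only Ctsa was called with any 1 array left out, and the count was 2 without either parental array and 2, Ctsa and Mmp14, without the 2 arrays of high GAPDH ratio. Genes that cleave matrix and genes that inhibit cleavage were both among those that fell. For 3 genes of these lists a dimmer probe set passed where the brightest did not: Timp3 (-2.61, limma adjusted p = 0.00882), Adamts10 (-1.76, limma adjusted p = 0.0440) and the copper importer gene Slc31a1 (-0.95, limma adjusted p = 0.0227). Other dimmer Slc31a1 probe sets did not pass (limma adjusted p = 0.441 and 0.0692). All 3 calls were lost without the 2 arrays of high GAPDH ratio, at log2 differences of -2.02, -1.99 and -0.89. The Adamts10 call was also lost without clone I or clone II replicate 1. Itgb3, an integrin subunit gene short of the filter, had a log2 difference of -3.96 without it (limma adjusted p = 0.0325).

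Markers of other cell types were summed on each array. The 8 fibroblast and mesenchymal markers summed to 1574 to 5539 on the GLI1 arrays, against 124265 to 147340 on the parental arrays, and 2 of the 3 tested, Col1a1 and Col3a1, fell. That gap came from the matrix genes Col1a1, Col3a1 and Postn: the other 5 summed to 843 to 2554 on the GLI1 arrays, against 2237.5 to 2691 on the parental arrays, and overlapped. The third tested, Pdgfra, a receptor gene of mesenchymal cells, had a log2 difference of -0.06 (limma adjusted p = 0.950), and Dcn and Lum had overlapping low signals. Pdgfrb read 485, 148, 213 and 168 on the GLI1 arrays, against 814 and 529 on the parental arrays, with no overlap. Thy1 read 295, 423, 99.6 and 40.1 on the GLI1 arrays, against 450 and 476 on the parental arrays, also with no overlap. Both fell short of the filter, and without it neither passed (limma adjusted p = 0.166 and 0.359). The 5 smooth muscle markers summed to 2357 to 5500.5 on the GLI1 arrays, against 29540 to 50330 on the parental arrays. Acta2, Tagln and Cnn1 fell, while Myh11 and Des did not pass. The Cnn1 call was lost without parental replicate 2 and without the 2 arrays of high GAPDH ratio. The part of a change in cell state or in the mix of cells in the falls of Lox, Loxl1, Loxl2 and Fbln5 was not tested. The 7 epithelial markers summed to 1409 to 9192 on the GLI1 arrays, against 2294 to 2847 on the parental arrays, and 0 of the 3 tested passed. The 6 kidney tubule markers summed to 1224 to 1877 on the GLI1 arrays, against 1246 to 1321 on the parental arrays. Only Aqp1 of these 6 passed the filter, and its log2 difference was 0.08 (limma adjusted p = 0.898). Endothelial markers summed to 556 to 654 on the GLI1 arrays, against 682 to 874 on the parental arrays, and none was tested. Immune markers summed to 839 to 2060 on the GLI1 arrays, against 2509.5 to 2966 on the parental arrays, with Ptprc at 81.4 or below on every array. Of the 2 tested, Cd14, a receptor gene for bacterial lipopolysaccharide, fell. It read 383.5, 515, 1071 and 364 on the GLI1 arrays, against 2148 and 1621 on the parental arrays. Its log2 difference was -1.82 (SE 0.45, limma adjusted p = 0.0301). The Cd14 call was lost without clone I, without clone II replicate 2 and without either parental array. Without the 2 arrays of high GAPDH ratio it was lost too, at a log2 difference of -1.96. Csf1r, the other, did not pass (limma adjusted p = 0.894).

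The genes whose signals followed Lox most closely over the 6 arrays were found by Pearson correlation of log2 signals among 10233 other tested genes. They were Kctd12 (a potassium channel tetramerisation domain gene), Slc39a8 (a zinc and metal ion importer), Nrep, Cav1 (the caveolae coat gene) and Zfp266, with r from 0.996 to 0.999. Kctd12 read 1376, 1224, 1331 and 1277 on the GLI1 arrays, against 51806 and 42972 on the parental arrays. Nkx6-1, Prmt5, Wbp11, Ntn1 and Snai1 ran opposite to Lox, with r from -0.999 to -0.997. Nkx6-1, a homeobox factor, read 22621, 13655, 14497 and 16989 on the GLI1 arrays, against 129.9 and 161 on the parental arrays. All these correlations share the gap between the 2 groups of arrays. Slc39a8 and Cav1, like Lox, had a GLI1 mean below the filter, so they had to be higher in parental cells to be tested. Nkx6-1 had a parental mean below the filter, so it had to be higher in GLI1 cells to be tested. Of the 10233 genes, 30 (0.293%) had r over 0.99 and 41 (0.401%) had r under -0.99.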

How the data were processed

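The deposited values are intensity values, MAS5 signals on a linear scale from Affymetrix rat arrays of 1 colour, with biotin as the label, per the submitters' processing notes and the labels; version and genome build are not given in the sources used here. The trimmed mean was 2500.7 or 2500.8 on every array. Here signals below 1 were set to 1 and log2 taken. After 57 control probe sets were left out, probe sets with a mean log2 signal above the 40th percentile were tested with limma (version 3.58.1, R 4.3.3; lmFit, then eBayes with an intensity trend), two-sided, with Benjamini-Hochberg adjustment over 18625 probe sets. "Rose" and "fell" mean an adjusted p under 0.05, with 4 residual degrees of freedom for 2 groups and 3 for 3. Folds are 2 raised to the size of the log2 difference. The number of arrays limits the precision. The labels call the samples biological replicates without saying how cultures were kept apart, so p-values measure the spread between these arrays. The 2 clone II arrays come from the same line but count as separate arrays. The labels do not say whether the array with no clone named comes from clone I, clone II or a further line. With these 2 averaged, 5 of 8 tested genes among the 10 fell and 0 rose, against 4 of 7 without averaging, at 1 probe set per gene. Probe sets were named by a platform annotation (20826 with 1 symbol, 436 with several, 9780 with none). The genes, pathway lists and markers were chosen with earlier results of these data known. Every probe set of the 10 genes and every called list gene is named, a gene with several probe sets counting by the brightest. For genes most like Lox, the 5 of highest and 5 of lowest r were taken. The steps were tested on simulated data.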

Additional observations from a re-analysis of the deposited data

Results flagged for a closer look

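The tested Fbln1 probe set differed between the GLI1 lines in its direction against parental cells. Both clone II arrays (3594 and 2869.9) lay below the parental arrays (4799 and 4769), and the array with no clone named and clone I (10739 and 6799) lay above them. The log2 difference of clone II minus the other GLI1 arrays was -1.41 (SE 0.26), and the test of this difference did not pass (limma adjusted p = 0.130; with the replicate number as a block 0.0382, and 0.0382 to 0.413 over all alternatives). The second Fbln1 probe set, not tested, did not have that order. Vcan, which encodes the microfibril-bound proteoglycan versican, read 2375 and 3185 on the clone II arrays and 9794 and 5843 on the other GLI1 arrays. Its parental signals were 4472 and 3530. Over all GLI1 arrays its log2 difference from parental cells was 0.20 (SE 0.49, limma adjusted p = 0.833), and its 3 other tested probe sets did not pass either.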

How the results depend on the processing

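Over the 10 tested probe sets, the count that fell in GLI1 cells was 7; it was 4 with the filter at the 60th percentile, where 6 were tested, 3 without the 2 arrays of high GAPDH ratio, where fewer arrays are left, and 4 to 9 with 1 array left out (4 without parental replicate 1). Ltbp2 entered the test and fell without any 1 GLI1 array, so 9 is 8 of the 10 and Ltbp2. In clone II it was 6, 3 with the stricter filter and 2 without those 2 arrays. In the other GLI1 arrays 0 rose, but 1, Fbln1, rose with median centring, with the replicate block and without clone I, a range of 0 to 1 with 1 array left out. Clone II against the other GLI1 arrays gave 0, and 1 with the replicate block. The cause of the changes under centring and block was not tested. The Fbln1 log2 difference ran from -0.21 to 0.42 and that of Eln in the other GLI1 arrays from -0.70 to 0.085 with 1 array left out, so both turned sign. With a group of 1 array left, it is assumed to vary like the other groups. Same-numbered arrays deviated together with r of 0.104, 0.0681 and 0.321, not all above 0.1, so the numbers were not taken to pair the arrays. The replicate 1 arrays of clone II and parental cells are the 2 of high GAPDH ratio. The replicate block left the count in GLI1 cells at 7. Under median centring the median log2 difference over all tested sets was 0.17, against 0.00 as deposited. Counts of pathway genes that fell ranged from 2 to 9 for other elastic fibre genes, 1 to 5 for maturation and copper supply, 2 to 8 for receptors and proteases, 4 to 5 for collagens and 2 to 3 for TGF-beta ligands, with 0 rising under every alternative. Low GLI1 signals limit the folds of Lox, Loxl1, Ltbp2 and Postn, which depend on what is added before the log.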
